A study of Homo sapiens with 6 samples.

Results

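The 39 genes described here are NFE2L2, which encodes the transcription factor NRF2, its partners and inhibitor, the antioxidant, glutathione and detoxifying genes usually listed as NRF2 targets, and 3 metallothioneins. They were taken by symbol from the 24000 gene entries of the deposited table, and all 39 symbols matched 1 entry each. Of these, 37 had a mean of at least 0.5 FPKM over the 6 tumors and were tested. The others were ABCC2, with a mean of 0.194 FPKM, and MT1E, which was listed at 0 in all 6 tumors. FPKM divides the fragments of a gene by its transcript length and by the mapped fragments of the library, so levels of different genes can be compared.

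PC-3 cells come from a human prostate carcinoma and grow without androgens. The tumors were PC-3 xenografts in nude mice, which lack mature T cells but keep their own stromal and myeloid cells. The vehicle group (3 tumors) and the WCE group (3 tumors) carried the same cell line and host strain and a labeled treatment of 10 weeks, and differed by the oral Wedelia chinensis extract (WCE), for which the labels give no dose and no age of the mice. In the study's animal experiments the cells were placed in the anterior prostate and carried a luciferase gene, and its authors sequenced such tumors to look for the mechanism of WCE action. The paper describes a shorter treatment of its PC-3 tumors than the label and gives doses and an age of the mice. Whether these hold for the sequenced tumors is not stated. Nothing in the labels ties a tumor to another beyond its group. The p-values below treat these 6 tumors as independent, although vehicle replicate 3 and WCE replicate 1 were nearly identical, as described below.

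NRF2 is made continuously and, in resting cells, is held and sent for degradation by KEAP1, an adaptor of a ubiquitin ligase. When reactive cysteines of KEAP1 are modified by oxidants or electrophiles, NRF2 escapes, enters the nucleus, pairs with a small MAF protein such as MAFG and binds antioxidant response elements. The genes it turns on make and recycle glutathione and thioredoxin, supply NADPH, and reduce, conjugate and export reactive compounds. Much of the control of NRF2 itself is on the protein, which RNA does not report. Metallothioneins are small cysteine-rich proteins that bind zinc and copper, and are turned on through metal response elements by the factor MTF1.

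To show the DNA that these factors read, the 250 bases before a start site were taken from RefSeq (GRCh38.p14) for 6 members. MT2A and MT1X are shown because they are the metallothioneins with high levels and hold several matches to the metal response core, TXNRD1 and ME1 because each holds a match to the antioxidant response core, and GCLC and UGDH because they had the most negative differences in the list and hold no such match in this window. Each is written 5′ to 3′ on the strand of the gene. In MT2A (chr16:56608334-56608583, + strand) and MT1X (chr16:56682220-56682469, + strand) the capitals mark the metal response core, TGCGCNC or TGCACNC on either strand.
MT2A: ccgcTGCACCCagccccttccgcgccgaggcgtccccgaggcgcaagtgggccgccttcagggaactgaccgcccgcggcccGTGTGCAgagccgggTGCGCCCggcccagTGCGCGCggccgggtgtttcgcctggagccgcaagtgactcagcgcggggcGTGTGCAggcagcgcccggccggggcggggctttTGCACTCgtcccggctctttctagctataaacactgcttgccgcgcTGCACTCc
MT1X: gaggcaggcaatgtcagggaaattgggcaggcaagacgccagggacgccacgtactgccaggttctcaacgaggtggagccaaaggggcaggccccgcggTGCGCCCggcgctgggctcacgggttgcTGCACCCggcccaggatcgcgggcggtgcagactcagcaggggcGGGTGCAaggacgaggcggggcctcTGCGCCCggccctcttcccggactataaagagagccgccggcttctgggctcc
In TXNRD1 (chr12:104215529-104215778, + strand, the first of 2 start sites) and ME1 (chr6:83431052-83431301, − strand) the capitals mark the antioxidant response core, TGACNNNGC on either strand. GCLC (chr6:53545102-53545351, − strand) and UGDH (chr4:39527440-39527689, − strand) were searched for the same letters and hold none.
TXNRD1: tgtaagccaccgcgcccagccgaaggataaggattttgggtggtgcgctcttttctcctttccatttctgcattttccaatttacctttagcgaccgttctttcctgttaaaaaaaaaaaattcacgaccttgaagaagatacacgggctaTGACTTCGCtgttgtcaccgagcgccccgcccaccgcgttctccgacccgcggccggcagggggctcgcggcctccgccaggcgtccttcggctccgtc
ME1: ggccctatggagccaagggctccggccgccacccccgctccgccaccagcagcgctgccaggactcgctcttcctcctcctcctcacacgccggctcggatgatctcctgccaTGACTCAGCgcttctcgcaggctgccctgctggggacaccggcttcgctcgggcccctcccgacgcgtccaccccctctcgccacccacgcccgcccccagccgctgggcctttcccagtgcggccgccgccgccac
GCLC: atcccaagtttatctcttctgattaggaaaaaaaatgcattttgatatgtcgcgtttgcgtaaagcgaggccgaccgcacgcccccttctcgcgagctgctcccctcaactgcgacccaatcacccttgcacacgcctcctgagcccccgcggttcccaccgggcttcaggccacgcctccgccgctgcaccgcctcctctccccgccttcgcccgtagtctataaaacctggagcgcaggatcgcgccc
UGDH: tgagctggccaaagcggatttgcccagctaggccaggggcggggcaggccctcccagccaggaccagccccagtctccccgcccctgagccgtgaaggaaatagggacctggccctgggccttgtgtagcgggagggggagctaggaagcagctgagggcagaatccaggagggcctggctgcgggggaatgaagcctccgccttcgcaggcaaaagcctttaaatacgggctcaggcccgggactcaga

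MT2A held 7 matches to the metal response core and MT1X held 4, within these 250 bases. The antioxidant response core was found in 11 of the 41 start sites listed for 30 of the members, which is 26.8%, and in 3830 of 35116 start sites of all genes, which is 10.9%. Its 10 genes were CBR1, GCLM, GPX2, GSTP1, KEAP1, ME1, MT1X, MT2A, PGD and TXNRD1. The match in ME1 and that in MT2A (printed in lower case there) contain TGACTCA, the letters of an AP-1 site. The metal response core was found in 21 of the 41 member start sites (51.2%) and in 24.8% of all. No match to one core overlapped a match to the other in the members. RefSeq start sites were matched for 30 of the 39 members. These matches describe the letters of a short window, which misses elements farther from a start site. The matches and any link of them to the fold changes were not tested.

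Read counts are not in the table, and depth could only be estimated relative to another tumor. From the steps of low values, it was 25.0% of vehicle replicate 3 in WCE replicate 1 and 64.8% to 85.2% in the other 4. WCE replicate 1 was also nearly identical to vehicle replicate 3. None of its 15805 entries above 0 was at 0 in vehicle replicate 3 (0 entries), against 329 to 546 in the other 4 tumors. Since these libraries carry different treatments, they were kept as labeled, and the main counts and fold changes are also given for the 2 vehicle and 2 WCE tumors that remain without them. Over 5 PC-3 epithelial markers the sum was 1203 to 1447 FPKM in vehicle tumors and 1146 to 1406 FPKM in WCE tumors. KRT8, KRT18 (mean 292 FPKM) and KRT19 overlapped between the groups. EPCAM was at 305, 250 and 185 FPKM in vehicle tumors and at 180, 138 and 123 FPKM in WCE tumors. CDH1 was at 58.6, 61.4 and 57.8 FPKM and at 56.5, 38.0 and 35.9 FPKM, so both were lower in WCE tumors without overlap. The prostate markers KLK2 and KLK3 were listed at 0 in all 6 tumors. Summed over 6 fibroblast markers, the level was 42.1 to 56.4 FPKM in vehicle tumors and 12.8 to 55.9 FPKM in WCE tumors, with COL1A2, DCN and PDGFRB each at a mean under 1 FPKM. Over 6 endothelial markers it was 1.20 to 3.37 FPKM and 3.21 to 7.60 FPKM, with EMCN at 0 and the highest sum, in WCE replicate 3, mostly KDR (5.12 FPKM), and over 7 myeloid markers 25.8 to 41.4 FPKM and 40.4 to 44.7 FPKM, nearly all of it CD68, with TYROBP at 0. The 5 erythroid markers summed to at most 0.285 FPKM. Stromal and myeloid cells of these tumors are those of the mouse host, whereas these entries carry human gene symbols. CD68 had a mean of 36.3 FPKM beside 0.362 FPKM for PTPRC, and COL1A1 35.7 FPKM beside 0.244 FPKM for COL1A2. Whether such values came from mouse reads or from PC-3 cells was not tested, so the sums cannot be read as host cell content. The part of host cells in the differences below was not tested, and fewer cells of a type cannot be told apart from less RNA per cell.

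**Figure D1:**
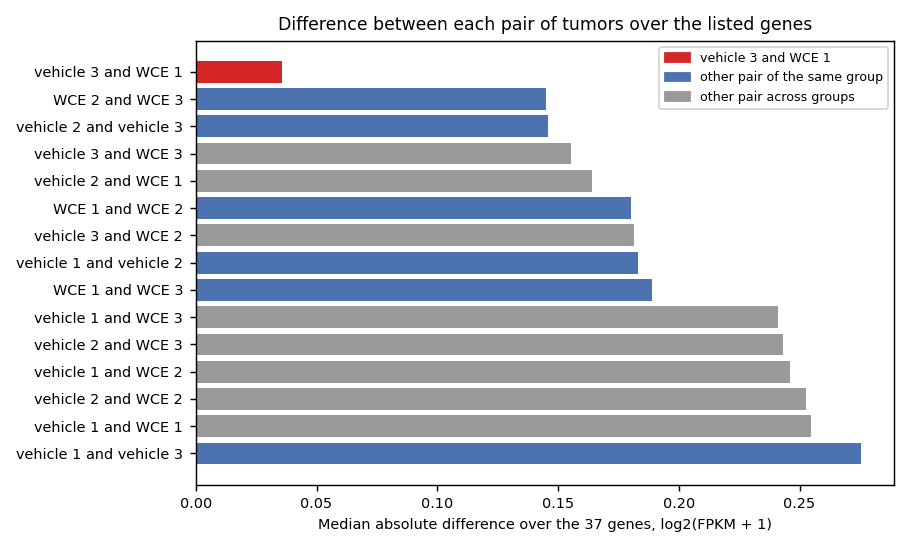
Each bar is the median absolute difference in log2(FPKM + 1) between a pair of tumors over the 37 listed genes tested. Vehicle replicate 3 and WCE replicate 1 differ by a median of 0.036, and the other 14 pairs by 0.15 to 0.28.

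Over the 37 genes, vehicle replicate 3 and WCE replicate 1 differed by a median of 0.036 on the log2(FPKM + 1) scale, and 33 genes lay within 10% of each other. The other 14 pairs of tumors had medians of 0.15 to 0.28 and 7 to 19 genes within 10%. The farthest pair of all, vehicle replicates 1 and 3, was within a group, as the bar plot of the tumor pairs shows. AKR1B10 was the gene with the largest difference in that pair, and MT1X the gene with the largest difference between vehicle replicate 3 and WCE replicate 1.

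The listed genes spanned levels from the top of the transcriptome to near 0. MT2A had a mean of 1230 FPKM, above 99.5% of the entries tested, and PRDX1, a thiol peroxidase that removes hydrogen peroxide, had 896 FPKM. SOD1, the copper and zinc superoxide dismutase of the cytosol, had 351 FPKM, and GPX1, GSTP1, TXN and GPX4 had between 256 and 342 FPKM. Lower levels were seen for SLC7A11, the cystine transporter that feeds glutathione synthesis, at 7.93 FPKM, and for AKR1C2, a steroid reductase, at 1.31 FPKM. ABCC2, an export pump for conjugates in liver and kidney, was at 0.150 to 0.264 FPKM in the 6 tumors. Together the 39 genes took between 0.638% and 0.832% of the summed FPKM of a tumor.

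The spread between the tumors also differed from gene to gene. The highest tumor was 1.05 times the lowest for SLC7A11, 1.15 times for GPX4, 3.39 times for AKR1B10 and 2.67 times for AKR1C2. Vehicle replicate 1 was the highest tumor for 12 of the 37 genes and WCE replicate 2 the lowest for 13. The same counts were not made over all entries, so these cannot be called particular to the list.

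**Figure D2:**
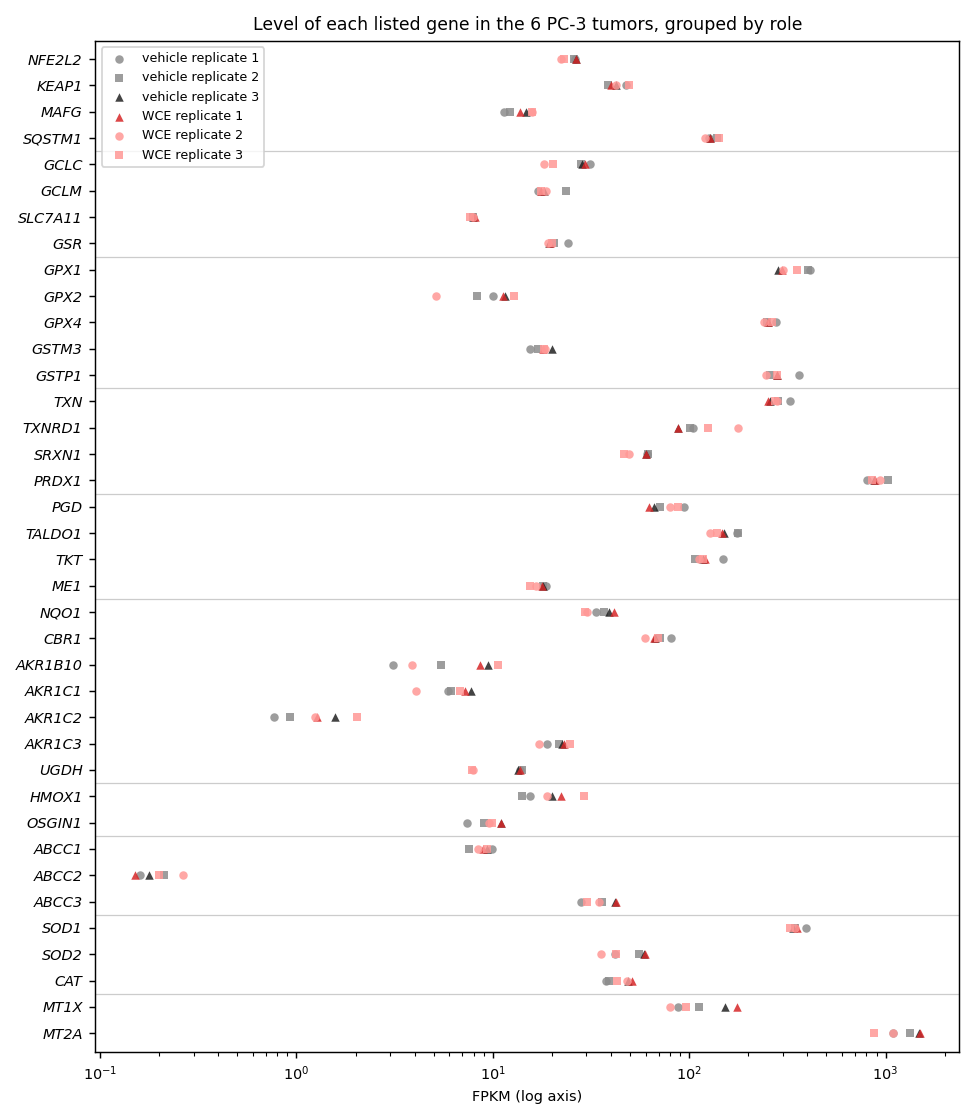
FPKM of 38 listed genes (MT1E, at 0 throughout, is not drawn) on a log axis, 1 symbol for each tumor, with lines between the groups of genes by role. Triangles are the nearly identical libraries, which lie close together in most rows. AKR1B10, AKR1C2, GPX2, HMOX1, TXNRD1 and MT1X spread most.

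Between the treatments, none of the 37 genes passed the adjusted threshold. By limma on log2(FPKM + 1), with Benjamini-Hochberg adjustment over 13287 entries, 0 members had an adjusted p under 0.05, with a lowest adjusted p of 0.623, where 1 entry or 0.00753% of all entries passed. At an unadjusted p under 0.05 there were 3 members, or 8.11%, against 7.1% of all entries. HMOX1 was higher in WCE tumors, and TALDO1 and UGDH were lower. Fold changes were below 0 in 26 and above 0 in 11 genes, with a median of −0.069 beside −0.0063 over all entries tested. With upper-quartile scaling the split was 21 below and 16 above, with medians of −0.050 for the members and 0.010 for all entries. Quantile normalization gave 23 below and 14 above, with medians of −0.033 and −0.0054. Among entries with a mean of at least 5 FPKM, which held 36 members, the medians were −0.072 and −0.020. The groups did not overlap in 3 genes, SRXN1, TALDO1 and ME1, all lower in WCE tumors. That is 8.11% of the members, against 12.8% of all entries for either direction and 6.4% for the lower one. With 3 tumors against 3, an exact permutation test cannot give a two-sided p below 0.1. Any gene whose groups do not overlap has this value, as these 3 genes do, so it adds nothing to the lack of overlap.

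In the 2 vehicle and 2 WCE tumors without the nearly identical libraries, limma gave 7 of 37 genes (18.9%) an unadjusted p under 0.05, against 18.6% of all 13255 entries then tested. UGDH, GCLC, SRXN1 and TALDO1 were lower, and HMOX1, TXNRD1 and MAFG were higher. Again 0 passed the adjustment, and the lowest adjusted p was 0.162, while 5 entries or 0.0377% of all passed. The median log2 fold change was −0.13, beside −0.0090 over all entries. The groups did not overlap in 19 of 37 genes (51.4%), 12 of them lower in WCE tumors, where 53.6% of all entries did not overlap and 27.8% were lower. In both comparisons the shares of the members under an unadjusted p of 0.05 by limma were near those of all entries. Without overlap and higher in WCE tumors were 0% of the members and 6.37% of all entries with 3 against 3 tumors. With 2 against 2, these shares were 18.9% and 25.8%.

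**Figure D3:**
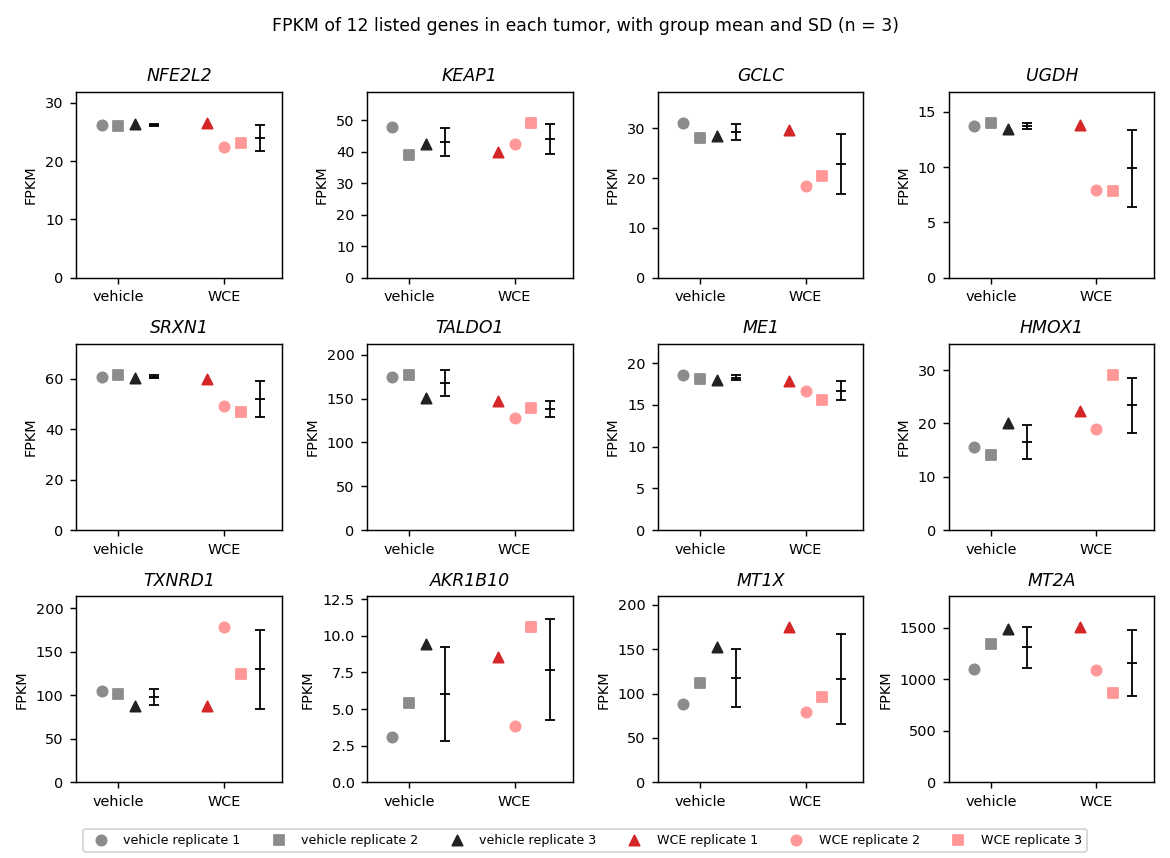
FPKM of 12 listed genes in each tumor, with symbols for tumors and, to the right of each group, the mean and SD (n = 3). For UGDH, GCLC and SRXN1, WCE replicates 2 and 3 lie below the other 4 tumors, while WCE replicate 1 lies beside vehicle replicate 3.

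For the 4 regulators, limma gave 0 unadjusted p-values under 0.05 with all 6 tumors, and 1, for MAFG, without the nearly identical libraries. NFE2L2, listed at 178095031 to 178129859 of chromosome 2 (the table names no build, here and below), was at 26.2, 26.1 and 26.4 FPKM in the vehicle tumors and at 26.6, 22.3 and 23.1 FPKM in the WCE tumors. The 3 vehicle tumors were nearly equal, and WCE replicate 1 was above all of them. Its log2 fold change was −0.13 (95% confidence interval −0.35 to 0.10), and −0.19 (−0.45 to 0.064) without the nearly identical libraries. KEAP1, on chromosome 19 from 10596796 to 10614054, was at 47.8, 38.8 and 42.5 FPKM and at 40.1, 42.5 and 49.3 FPKM. These ranges cover each other, and the log2 fold change of 0.029 had an interval of −0.25 to 0.31. KEAP1 was above 0 in 16 of the 18 settings and below 0 without vehicle replicate 2 or WCE replicate 3. MAFG, a small MAF partner of NRF2, had 12.8 ± 1.72 FPKM in vehicle and 15.1 ± 1.20 FPKM in WCE tumors (SD, n = 3 each). Its log2 fold change of 0.23 (standard error 0.12) became 0.39 (0.11) without the nearly identical libraries (limma, unadjusted p = 0.0134, adjusted p = 0.196), where the groups did not overlap. It was 0.33 without vehicle replicate 3 (limma, unadjusted p = 0.026) and 0.16 without vehicle replicate 1 (limma, unadjusted p = 0.240). SQSTM1, the autophagy receptor that binds KEAP1, had 131 ± 6.88 and 130 ± 10.9 FPKM (SD, n = 3 each), and its listed locus is shared by 4 entries.

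Glutathione synthesis starts with glutamate-cysteine ligase, of which GCLC is the catalytic and GCLM the modifier subunit. GCLC, on chromosome 6 from 53362140 to 53409927, was at 31.1, 28.1 and 28.4 FPKM in vehicle tumors and at 29.6, 18.3 and 20.4 FPKM in WCE tumors. The groups overlapped through WCE replicate 1 alone. The log2 fold change was −0.37 (limma, unadjusted p = 0.0618, adjusted p = 0.623, standard error 0.17). Without WCE replicate 1 it was −0.57 (limma, unadjusted p = 0.00132), and without the nearly identical libraries −0.59 (limma, unadjusted p = 0.00342, adjusted p = 0.165, standard error 0.12). It was −0.24 without WCE replicate 2 (limma, unadjusted p = 0.202) and −0.31 without WCE replicate 3 (limma, unadjusted p = 0.169).

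The other genes of glutathione supply had smaller differences. GCLM had 19.6 ± 3.46 FPKM in vehicle and 18.0 ± 0.587 FPKM in WCE tumors (SD, n = 3 each), and the interval of its log2 fold change (−0.11) was −0.41 to 0.20. SLC7A11 was the steadiest gene of the list, at 7.95 ± 0.0221 and 7.91 ± 0.205 FPKM (SD, n = 3 each), and its log2 fold change of −0.0072 had an interval of −0.22 to 0.20. GSR, the reductase that regenerates glutathione with NADPH, had 21.3 ± 2.58 and 19.5 ± 0.491 FPKM (SD, n = 3 each), with vehicle replicate 1 at 24.2 FPKM above the rest.

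Among enzymes that use glutathione, GPX1, a selenium-containing peroxidase, was at 413, 401 and 284 FPKM in vehicle tumors and at 297, 302 and 354 FPKM in WCE tumors. Vehicle replicate 3 was the lowest of the 6 tumors, so the groups overlapped, and the log2 fold change was −0.19 (standard error 0.16). It was −0.36 without vehicle replicate 3 (limma, unadjusted p = 0.022), −0.091 without vehicle replicate 1 (limma, unadjusted p = 0.608) and −0.11 without vehicle replicate 2 (limma, unadjusted p = 0.568). GSTP1, a glutathione transferase whose promoter is methylated in most prostate carcinomas, was at 362, 260 and 279 FPKM and at 279, 246 and 280 FPKM. Vehicle replicate 1 stood above the other 5 tumors, and the log2 fold change of −0.15 had an interval of −0.48 to 0.18 and was −0.0070 without that tumor. GPX4, the peroxidase of membrane lipids, had 258 ± 15.6 and 253 ± 11.5 FPKM, and GSTM3 had 17.5 ± 2.29 and 18.1 ± 0.224 FPKM (SD, n = 3 each). GPX2 ranged from 5.15 to 12.8 FPKM, both in WCE tumors, and its listed locus is shared by 6 entries.

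In the thioredoxin system, TXNRD1 and SRXN1 pointed in opposite directions. TXNRD1 encodes thioredoxin reductase, a selenoprotein, and is listed on chromosome 12 from 104609559 to 104744062, a locus shared with EID3. It was at 105, 101 and 87.8 FPKM in vehicle tumors and at 87.9, 178 and 125 FPKM in WCE tumors. WCE replicates 2 and 3 were above all 3 vehicle tumors, and WCE replicate 1 was within 0.190% of vehicle replicate 3. Its log2 fold change was 0.35 (limma, unadjusted p = 0.174, adjusted p = 0.651, standard error 0.23), 0.60 without WCE replicate 1 (limma, unadjusted p = 0.011) and 0.098 without WCE replicate 2. In the 4 tumors without the nearly identical libraries it was 0.53 (limma, unadjusted p = 0.034, adjusted p = 0.237, standard error 0.19).

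SRXN1 encodes sulfiredoxin, which repairs overoxidized peroxiredoxins, and lies on chromosome 20 from 627268 to 633890. It was at 60.8, 61.4 and 60.2 FPKM in vehicle tumors and at 60.1, 49.3 and 46.7 FPKM in WCE tumors. The groups did not overlap, but the gap between vehicle replicate 3 and WCE replicate 1 was only 0.238% of the former. Its log2 fold change was −0.23 (limma, unadjusted p = 0.0781, adjusted p = 0.623, standard error 0.11), and −0.34 without the nearly identical libraries (limma, unadjusted p = 0.0175, adjusted p = 0.204). TXN, thioredoxin itself, had 289 ± 34.5 and 268 ± 15.1 FPKM, and PRDX1 had 902 ± 117 and 890 ± 41.8 FPKM (SD, n = 3 each).

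NADPH for these reductases comes from the pentose phosphate pathway and malic enzyme. TALDO1, transaldolase of the nonoxidative pentose phosphate branch, lies on chromosome 11 from 747432 to 765024. It was at 175, 177 and 150 FPKM in vehicle tumors and at 147, 128 and 139 FPKM in WCE tumors, so every WCE tumor was below every vehicle tumor. Its log2 fold change was −0.27 (95% confidence interval −0.52 to −0.022; limma, unadjusted p = 0.0365, adjusted p = 0.623). Removing 1 tumor raised the unadjusted p by limma to 0.0792 for vehicle replicate 1, 0.11 for vehicle replicate 2, 0.137 for WCE replicate 2 and 0.0852 for WCE replicate 3, and it was 0.0607 with a replicate block. Without the nearly identical libraries the log2 fold change was −0.40 (limma, unadjusted p = 0.0129, adjusted p = 0.195).

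ME1, cytosolic malic enzyme, whose antioxidant response core is printed above, was at 18.6, 18.1 and 18.0 FPKM and at 17.9, 16.7 and 15.6 FPKM. The groups did not overlap, with 0.692% between vehicle replicate 3 and WCE replicate 1, and the log2 fold change was −0.12 (standard error 0.092; limma, unadjusted p = 0.230). PGD, the phosphogluconate dehydrogenase that forms NADPH, had 77.1 ± 14.7 and 76.8 ± 12.9 FPKM, and TKT, transketolase, had 124 ± 21.4 and 117 ± 4.43 FPKM (SD, n = 3 each).

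UGDH had the most negative fold change of the list. It encodes UDP-glucose dehydrogenase, which makes the UDP-glucuronic acid used for glucuronide conjugation and for hyaluronan, and lies on chromosome 4 from 39500375 to 39529218. It was at 13.7, 14.0 and 13.5 FPKM in vehicle tumors and at 13.8, 7.90 and 7.87 FPKM in WCE tumors. WCE replicates 2 and 3 were far below the other 4 tumors, which were nearly equal. The log2 fold change was −0.48 (limma, unadjusted p = 0.0437, adjusted p = 0.623, standard error 0.20). Without the nearly identical libraries it was −0.74 (limma, unadjusted p = 0.000779, adjusted p = 0.162, standard error 0.11), and without WCE replicate 1 alone −0.73. It was −0.36 without WCE replicate 2 (limma, unadjusted p = 0.133) or WCE replicate 3 (limma, unadjusted p = 0.145). Removing vehicle replicate 1, 2 or 3 gave an unadjusted p by limma of 0.0848, 0.0985 and 0.0834.

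NQO1, the quinone reductase often used as a readout of NRF2, had 36.3 ± 2.75 FPKM in vehicle and 33.6 ± 6.56 FPKM in WCE tumors (SD, n = 3 each). NQO1 had a log2 fold change of −0.12 with an interval of −0.46 to 0.21, and it was −0.27 without WCE replicate 1 (limma, unadjusted p = 0.042), −0.053 without WCE replicate 2 (limma, unadjusted p = 0.756), −0.038 without WCE replicate 3 (limma, unadjusted p = 0.822) and −0.072 without vehicle replicate 3 (limma, unadjusted p = 0.678). CBR1, a carbonyl reductase whose locus is shared with LOC100133286, had 72.9 ± 7.28 and 65.2 ± 5.20 FPKM (SD, n = 3 each).

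The aldo-keto reductases, which reduce aldehydes, ketones and steroids, included the genes with the widest spread between tumors, AKR1B10 and AKR1C2. AKR1B10 was at 3.12, 5.44 and 9.46 FPKM in vehicle tumors and at 8.59, 3.88 and 10.6 FPKM in WCE tumors. High and low tumors occurred in both groups, and the log2 fold change was 0.32 (standard error 0.40). Without WCE replicate 2 it was 0.69. AKR1C3, which makes active androgens from weak precursors, was at 18.9, 21.8 and 22.6 FPKM and at 23.0, 17.2 and 24.7 FPKM. AKR1C1 was at 5.89, 6.16 and 7.70 FPKM and at 7.22, 4.06 and 6.78 FPKM, and AKR1C2 at 0.768, 0.931 and 1.57 FPKM and at 1.27, 1.25 and 2.05 FPKM. WCE replicate 2 was the lowest tumor for AKR1C1 and AKR1C3, and WCE replicate 3 the highest for AKR1B10, AKR1C2 and AKR1C3. Fold changes on the log2 scale were −0.14 for AKR1C1, 0.28 for AKR1C2 and 0.023 for AKR1C3, and each interval included 0. These genes are near copies. Of the 50-base windows in their GENCODE protein-coding transcripts, 48.1% for AKR1C2, 26.9% for AKR1C1 and 9.55% for AKR1C3 also occurred in another AKR1C gene, so the authors' counting could have split their reads and each level is uncertain. Of the windows of AKR1B10, 11.6% also occurred in AKR1B15.

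HMOX1, the inducible heme oxygenase that releases iron, carbon monoxide and biliverdin from heme, had the most positive fold change. It lies on chromosome 22 from 35777060 to 35790207 and was at 15.5, 14.1 and 20.1 FPKM in vehicle tumors and at 22.3, 18.9 and 29.1 FPKM in WCE tumors. WCE replicate 2 was below vehicle replicate 3, so the groups overlapped. The log2 fold change was 0.47 (95% confidence interval 0.042 to 0.90; limma, unadjusted p = 0.0353, adjusted p = 0.623), and 0.63 without the nearly identical libraries (limma, unadjusted p = 0.0278, adjusted p = 0.223). The unadjusted p by limma was 0.088 with vehicle replicate 1 removed, 0.118 with vehicle replicate 2 removed, 0.0572 with WCE replicate 1 removed and 0.124 with WCE replicate 3 removed, where the log2 fold change was 0.31. Macrophages express HMOX1, and the myeloid marker CD68 was at 25.3, 30.4 and 40.0 FPKM in vehicle tumors and at 38.7, 39.6 and 43.9 FPKM in WCE tumors. The other 6 myeloid markers each had a mean under 1 FPKM and did not all follow CD68. PTPRC was at 0.106, 0.480 and 0.588 FPKM in vehicle and at 0.666, 0.207 and 0.122 FPKM in WCE tumors. CD14 was at 0.0538, 0.273 and 0.386 FPKM and at 0.557, 0.566 and 0.304 FPKM, and TYROBP was at 0 throughout. By flow cytometry, the paper reports fewer tumor-associated macrophages in PC-3 tumors after WCE. That measure is a percentage of cells, and the macrophages are those of the mouse host. CD68 and HMOX1 here are RNA levels of entries with human symbols, so the 2 measures are not alike. The part of macrophages in the HMOX1 values was not tested. OSGIN1, an oxidative stress-induced growth inhibitor, had 9.15 ± 1.82 and 10.2 ± 0.727 FPKM (SD, n = 3 each).

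The exporters of glutathione conjugates gave no difference that could be told from the spread. ABCC1 had 8.95 ± 1.22 and 8.89 ± 0.504 FPKM, and ABCC3 had 35.2 ± 6.82 and 35.8 ± 6.25 FPKM (SD, n = 3 each), with log2 fold changes of −0.0017 and 0.025 whose signs changed between settings. Their intervals were −0.28 to 0.28 and −0.38 to 0.43.

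Of the enzymes that remove superoxide and hydrogen peroxide directly, SOD1 had 360 ± 30.9 and 342 ± 13.9 FPKM (SD, n = 3 each). SOD2, the mitochondrial manganese enzyme and also an NFκB target, had 52.0 ± 9.12 and 45.7 ± 12.4 FPKM (SD, n = 3 each), which gave a log2 fold change of −0.20 (95% confidence interval −0.68 to 0.28). With single tumors removed, this value lay between −0.40 without WCE replicate 1 (limma, unadjusted p = 0.053) and −0.037 without WCE replicate 2 (limma, unadjusted p = 0.859), and array weights gave −0.36 (limma, unadjusted p = 0.040). CAT, catalase of peroxisomes, had 41.8 ± 6.00 and 47.5 ± 4.09 FPKM (SD, n = 3 each). For CAT the log2 fold change of 0.18 became 0.30 without vehicle replicate 3 (limma, unadjusted p = 0.035) and 0.12 without vehicle replicate 1 (limma, unadjusted p = 0.410).

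MT2A and MT1X were highest in the nearly identical libraries. MT2A, on chromosome 16 from 56642478 to 56643409, was at 1098, 1339 and 1482 FPKM in vehicle tumors and at 1501, 1089 and 869 FPKM in WCE tumors. MT1X, from 56716382 to 56718108 on the same chromosome, was at 87.7, 112 and 152 FPKM and at 174, 79.7 and 96.2 FPKM. Both were highest in WCE replicate 1 and next highest in vehicle replicate 3, and the lowest tumor of each was a WCE tumor. WCE minus vehicle gave a log2 fold change of −0.21 (95% confidence interval −0.70 to 0.29) for MT2A and −0.054 (−0.77 to 0.66) for MT1X. For MT2A it was −0.41 without WCE replicate 1 (limma, unadjusted p = 0.057), −0.33 without vehicle replicate 1, −0.11 without vehicle replicate 3, −0.021 without WCE replicate 3 and −0.49 with array weights (limma, unadjusted p = 0.024). In the 4 tumors without the nearly identical libraries it was −0.32 for MT2A (−0.77 to 0.14) and −0.18 for MT1X (−0.60 to 0.24), and the sign for MT1X turned with WCE replicate 2 (0.18), vehicle replicate 3 (0.15) or WCE replicate 3 (0.043) removed. MT1E was listed at 0 in all 6 tumors. Of its 50-base windows, 4.19% also occurred in the other 9 metallothionein genes compared, against 7.63% for MT1X and 2.22% for MT2A. Among the related metallothioneins, MT1F was at 12.5 to 22.8 FPKM, lowest in WCE replicate 1 and highest in vehicle replicate 2, and MT1A, MT1H and MT1L were listed at 0 in all 6 tumors. MTF1, the factor that reads the metal response elements, was at 3.36 to 4.43 FPKM.

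**Figure D4:**
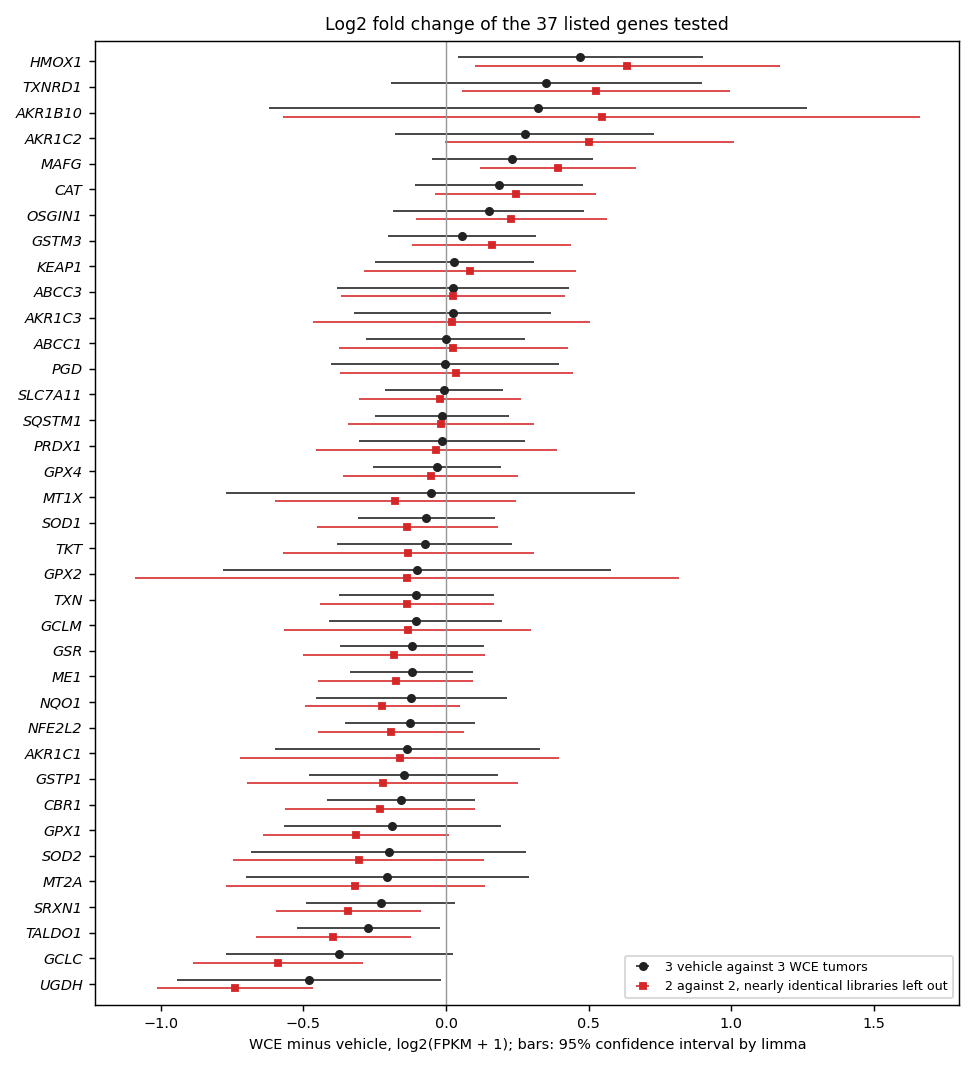
Log2 fold change (WCE minus vehicle, log2(FPKM + 1)) of the 37 listed genes tested, with 95% confidence intervals by limma. Circles compare 3 with 3 tumors and squares 2 with 2, without the nearly identical libraries. HMOX1 at 0.47 and UGDH at −0.48 lie at the ends, and the intervals of 3 genes exclude 0 in the comparison of 3 with 3.

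Beyond the 39 genes, 85 related genes of the pathway were listed, of which 84 entries were found and 71 tested, since UGT1A1 and UGT1A6 share an entry. By limma, 0 had an adjusted p under 0.05, and for 6 it was under 0.05 before adjustment, 2 higher and 4 lower in WCE tumors, where 3.78% and 3.33% of all entries were. Their median log2 fold change was −0.037. Leaving out the nearly identical libraries, this number was 11 of 70, 3 higher and 8 lower, where 8.92% and 9.63% of all entries were.

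The lower genes included another step of glutathione turnover. GGCT, gamma-glutamylcyclotransferase, was at 171, 164 and 104 FPKM in vehicle tumors and at 109, 96.1 and 99.4 FPKM in WCE tumors, a log2 fold change of −0.50 (limma, unadjusted p = 0.032). Here vehicle replicate 3 was among the WCE tumors. GSTO1, an omega-class transferase, had a log2 fold change of −0.25, and TRIM16 and TRIM16L, which are usually listed as NRF2 targets, had −0.42 and −0.29. The higher genes were OPLAH, 5-oxoprolinase, which returns glutamate from the same cycle, with a log2 fold change of 0.32, and GSTM2, with 0.56. GSTM2 was at 19.5, 29.6 and 40.1 FPKM in vehicle and at 39.8, 48.0 and 40.1 FPKM in WCE tumors, and is close in sequence to other mu-class genes. The unadjusted p by limma of these 6 genes lay between 0.031 and 0.047, and their adjusted p was 0.623. Leaving out the nearly identical libraries, the log2 fold change was −0.77 for GGCT (limma, unadjusted p = 0.000477, adjusted p = 0.154), −0.59 for TRIM16, −0.36 for TRIM16L, −0.34 for GSTO1, 0.48 for OPLAH and 0.84 for GSTM2 (limma, unadjusted p = 0.010, adjusted p = 0.188).

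Of the 9 further regulators and the 10 further thioredoxin and superoxide genes, limma gave 0 a p under 0.05 before adjustment in either comparison. CUL3, the scaffold of the KEAP1 ligase, was at 12.6 to 17.2 FPKM, and BACH1, a repressor that competes with NRF2 at heme-responsive genes, at 8.62 to 11.3 FPKM. GSS, glutathione synthetase, was at 50.8, 51.8 and 51.4 FPKM in vehicle tumors and at 49.4, 60.0 and 58.5 FPKM in WCE tumors, so the groups overlapped through WCE replicate 1.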

How the data were processed

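RNA was sequenced from 6 PC-3 tumors with strand-specific libraries of polyadenylated RNA. The authors deposited 1 table of FPKM values with a column for each tumor and 24000 entries. The submitters' processing notes name TopHat2 2.0.13 and Cufflinks and the builds hg19 and mm10, with no role or order. The annotation, any separation of mouse reads and any scaling between tumors are not given in the sources used here. Columns were matched by the sample labels, and 0 columns were left out. Loci are the table's, with 1 added to the start (DDX11L1 is listed at 11873 and starts at 11874 in RefSeq).

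The members and lists were chosen with earlier results of these data known. Entries reaching a mean of 0.5 FPKM were compared on log2(FPKM + 1) with limma 3.58.1 in R 4.3.3, two-sided, with a mean-variance trend and Benjamini-Hochberg adjustment over all entries, at a threshold of 0.05. This scale understates changes of low genes. Values in every tumor are given for NFE2L2, KEAP1, members without overlap or with an unadjusted p under 0.05, the 5 largest fold changes, the metallothioneins, the AKR1C genes, GPX1, GSTP1 and HMOX1. Of the related genes, the 5 largest rises and falls under that p were named, and CUL3, BACH1, MTF1, GSS and 4 metallothioneins were added after their values were seen. The fit was tested on simulated data. Relative depth came from the commonest ratio of low values. Since absolute depth is unknown, counting intervals were not computed. An unpaired, unmoderated test on log2(FPKM + 1) was an alternative. The paper names an unpaired t-test in its general statistics and does not say how its sequencing data were tested. Others were the pseudocount, filter, scaling, trend, weights, a replicate block and tumors left out. Python 3.11.15, numpy 2.4.6, pandas 2.3.3 and matplotlib 3.10.9 were used.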

Additional observations from a re-analysis of the deposited data

How the results depend on the processing

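Leaving out 1 tumor in turn gave 0 to 6 members under an unadjusted p of 0.05 in limma (3 with all 6 tumors), 0 to 9 related genes (6), 1 to 7 entries of all with an adjusted p under 0.05 (1), and a median log2 fold change of the members of −0.095 to −0.036. The members under it numbered 0 with vehicle replicate 1, vehicle replicate 2 or WCE replicate 3 removed, 1 with WCE replicate 2 removed, 5 with vehicle replicate 3 removed and 6 with WCE replicate 1 removed. The share of all entries under it was 3.30%, 2.84%, 1.72%, 1.84%, 13.3% and 15.3% in the same order. The number of members with an adjusted p under 0.05 was 0 in every setting run. Without the nearly identical libraries there were 7 members, 11 related genes and 5 entries of all, with a median of −0.13. The unmoderated test gave 1 member and 0 entries of all, with 4.46% of all entries under an unadjusted p of 0.05. Array weights (0.408 in vehicle replicate 1, the lowest, and 4.00 in WCE replicate 3, the highest) gave 10 members and 16 related genes, with 24.1% of all entries under it. For these changes the cause was not tested.

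A replicate block gave 3 members, 4 related genes and 1 entry of all, with GCLC under the unadjusted threshold (−0.37, limma, unadjusted p = 0.0377) and TALDO1 above it (−0.27, limma, unadjusted p = 0.0607). The share of all entries under the unadjusted threshold was 7.89% in this setting. Nothing in the labels says that equal numbers pair tumors. The deviations of same-numbered tumors from their group means correlated at −0.24, 0.16 and −0.093, and 2 of 6 tumors correlated best with their own number.

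Over 37 members and 11 settings other than single tumors left out, 372 of 406 fold changes kept their direction and their side of the unadjusted threshold. The sign changed with upper-quartile scaling for SQSTM1 (0.0067), SLC7A11 (0.010), PRDX1 (0.0064), PGD (0.016) and ABCC1 (0.016), with quantile normalization for SQSTM1 (0.049), GPX4 (0.039) and PGD (0.048), with array weights for SQSTM1 (0.029), GPX2 (0.14), GPX4 (0.029), PGD (0.21), TKT (0.011), ABCC1 (0.10) and ABCC3 (−0.18), and without the nearly identical libraries for PGD (0.036) and ABCC1 (0.026). With single tumors removed, log2 fold changes spanned −0.054 to 0.11 for KEAP1, −0.078 to 0.038 for SQSTM1, −0.20 to 0.026 for GCLM, −0.022 to 0.011 for SLC7A11, −0.32 to 0.26 for GPX2, −0.063 to 0.018 for GPX4, −0.023 to 0.15 for GSTM3, −0.092 to 0.088 for PRDX1, −0.11 to 0.15 for PGD, −0.17 to 0.059 for TKT, −0.0096 to 0.69 for AKR1B10, −0.27 to 0.084 for AKR1C1, −0.076 to 0.17 for AKR1C3, −0.10 to 0.069 for ABCC1, −0.12 to 0.15 for ABCC3 and −0.38 to 0.18 for MT1X. The cause was not tested.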
